A study of Arabidopsis thaliana with 10 samples.

Results

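The 3 genes described here are CHIL (AT5G05270, chalcone isomerase-like), DFR (AT5G42800, dihydroflavonol reductase) and AT4G14090, an anthocyanin glucosyltransferase gene. Each was found in the probe-to-gene table of the array under 1 probe set, and they are 3 of 13350 genes with a probe set of their own among the 22746 probe sets tested on 10 Affymetrix ATH1 arrays. The genes were chosen by their own signals over these 10 arrays, among them their differences from 0 hr, so their courses are given as a description, without a p-value. All plants were Arabidopsis thaliana shr-2 mutants with the transgene pSHR:SHR-GR, in which the SHORT-ROOT (SHR) transcription factor is fused to the glucocorticoid receptor and driven by the SHR promoter. The fusion enters the nucleus when dexamethasone (DEX) is given. Whole shoots formed 5 groups, a control at 0 hr and DEX treatments of 3, 6, 12 and 24 hr at 10 µM, and each group had 2 arrays, biological replicates by the design text. The control plants carried the same mutation and transgene as the DEX-treated ones. DEX was given at 10 days after germination, or at 9 days for the 24 hr treatment, to plants grown under 16 h of light and 8 h of dark at 22 °C. The shoots of all 5 groups were 10 days past germination. Mock-treated shoots were not analysed here, so DEX, time of day, age within that day and handling cannot be told apart in any comparison with 0 hr.

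Flavonoids are phenolic pigments and sunscreens that plants make from phenylalanine. The early enzymes of the pathway close the chalcone into a flavanone and hydroxylate it, after which the path divides. Flavonol synthase leads to colourless flavonols, and DFR leads to the coloured anthocyanidins, which sugar and acyl transferases then turn into stable anthocyanins that are stored in the vacuole. In leaves the pathway is known for its response to light, sugar and cold. CHIL is a non-catalytic relative of chalcone isomerase that helps chalcone synthase make the right product. DFR commits dihydroflavonols to the anthocyanin branch. The product of AT4G14090 adds a glucose to position 5 of the anthocyanin core.

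The arrays were close to each other in overall level, with medians between 181.5 and 191.5 and a correlation between the 2 replicates of a time from 0.986 to 0.991 across probe sets. The 3 genes were bright, above 91.9% (CHIL), 97.2% (DFR) and 95.2% (AT4G14090) of all probe sets by mean signal. Among the shoot and root markers listed, 3 of 11 non-epidermal genes had a named probe set and 0 of 5 epidermal genes did, and flavonoid pigment is often made in the epidermis. RCA, Rubisco activase of green tissue, had mean signals between 18973 and 24234 at the 5 times. PYK10, a beta-glucosidase abundant in roots and also made in seedling shoots, lay between 8579 and 10283. The root-hair gene EXPA7 had mean signals of at most 21.0, below the 44.8 that marks the 30th percentile of mean signal and is called near background here. RCA and PYK10 did not pass the test against 0 hr at any time, with the smallest p that of RCA at 6 hr (log2 difference -0.35, SE 0.11, adjusted p = 0.0664 by limma). The part of RCA in the 6 hr values below was not tested. In whole shoots, fewer cells that make a transcript and less of it per cell cannot be told apart.

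CHIL, which acts earliest of the 3, was lowest at 3 hr. Its signals were 1975 and 2089 at 0 hr, 1620 and 1488 at 3 hr, 1761 and 1935 at 6 hr, 1651 and 1824 at 12 hr, and 2174 and 2085 at 24 hr. Both arrays at 3, 6 and 12 hr lay below both control arrays, and the 24 hr arrays overlapped them. Its mean was 1554 ± 93.0 at 3 hr against 2032 ± 81.1 at 0 hr (SD, n = 2 arrays each), a ratio of 0.765. On the log2 scale, with 16 added to each signal, the difference from 0 hr was -0.38 after 3 hr, -0.14 after 6 hr, -0.23 after 12 hr and 0.07 after 24 hr, each with an SE of 0.08. The 6 hr value was -0.069 without replicate 1 of 6 hr, and the 24 hr value was 0.027 without replicate 1 of 0 hr and 0.038 without replicate 1 of 24 hr. In order from the lowest the times ran 3, 12, 6, 0 and 24 hr. The arrays of 12 and 6 hr overlapped, as did those of 0 and 24 hr, so these neighbours did not differ beyond their spread. The 3 hr arrays lay below the 12 hr arrays and the 6 hr arrays below the control arrays without overlap. With 2 arrays at each time such a separation is common. At 6 hr it was met downwards by 31.8% of all probe sets.

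DFR had the widest course of the 3, with a ratio of 1.75 between its highest and its lowest array. Its signals were 5108 and 4937 at 0 hr, 3194 and 3085 at 3 hr, 4962 and 5258 at 6 hr, 4117 and 3981 at 12 hr, and 5386 and 4911 at 24 hr. The course thus had a deep low at 3 hr and a shallower one at 12 hr, and both the 6 hr and the 24 hr arrays overlapped the control arrays. The mean was 3140 ± 77.1 at 3 hr and 4049 ± 96.0 at 12 hr, against 5023 ± 120.7 at 0 hr (SD, n = 2 each), ratios of 0.625 and 0.806. The log2 difference from 0 hr was -0.68 after 3 hr, 0.02 after 6 hr, -0.31 after 12 hr and 0.03 after 24 hr, each with an SE of 0.07. Ordered from the lowest, the times were 3, 12, 0, 6 and 24 hr. The last 3 of these overlapped, while 3 hr and 12 hr stood apart from each other and from the rest.

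Between successive times DFR changed direction at every step. The log2 difference was 0.70 for 6 hr against 3 hr, -0.33 for 12 hr against 6 hr and 0.34 for 24 hr against 12 hr (SE 0.07 each), and the arrays of the times compared did not overlap in any of these steps. CHIL followed the same signs with smaller steps, at 0.25, -0.09 and 0.29 (SE 0.08 each). Its 12 hr arrays overlapped its 6 hr arrays, so the middle step of CHIL was within the spread, and it was -0.021 without replicate 2 of 6 hr and -0.017 without replicate 1 of 12 hr.

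AT4G14090 was lower than at 0 hr at every DEX time. Its signals were 3666 and 3621 at 0 hr, 2488 and 2367 at 3 hr, 2465 and 3040 at 6 hr, 2458 and 2563 at 12 hr, and 3362 and 2959 at 24 hr. No array of a DEX time reached the control arrays, and the 6 hr and 24 hr pairs were the widest apart. Its means were 3643 ± 31.8 for 0 hr, 2428 ± 85.1 for 3 hr, 2752 ± 406.6 for 6 hr, 2510 ± 74.4 for 12 hr and 3160 ± 285.3 for 24 hr (SD, n = 2 each). The ratio to 0 hr was 0.666 after 3 hr, 0.755 after 6 hr, 0.689 after 12 hr and 0.867 after 24 hr. The log2 difference was -0.58, -0.41, -0.53 and -0.21 at the 4 times in order, each with an SE of 0.10. The 24 hr value was -0.12 without replicate 2 of 24 hr, and the 6 hr value was -0.26 without replicate 1 of 6 hr.

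Unlike those of DFR, the 3, 6 and 12 hr levels of AT4G14090 were not separable. Ordered from the lowest, the times were 3, 12, 6, 24 and 0 hr, and each of the neighbours up to 24 hr overlapped the next. The step from 3 to 6 hr was 0.17 and that from 6 to 12 hr was -0.12 on the log2 scale (SE 0.10 each). Without replicate 2 of 6 hr, which had the signal of 3040, they were 0.022 and 0.026, so the sign of the middle step rested on that array, and the 6 hr difference from 0 hr was -0.56. The 24 hr arrays stood above the 12 hr arrays, by 0.33 (SE 0.10).

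**Figure D1:**
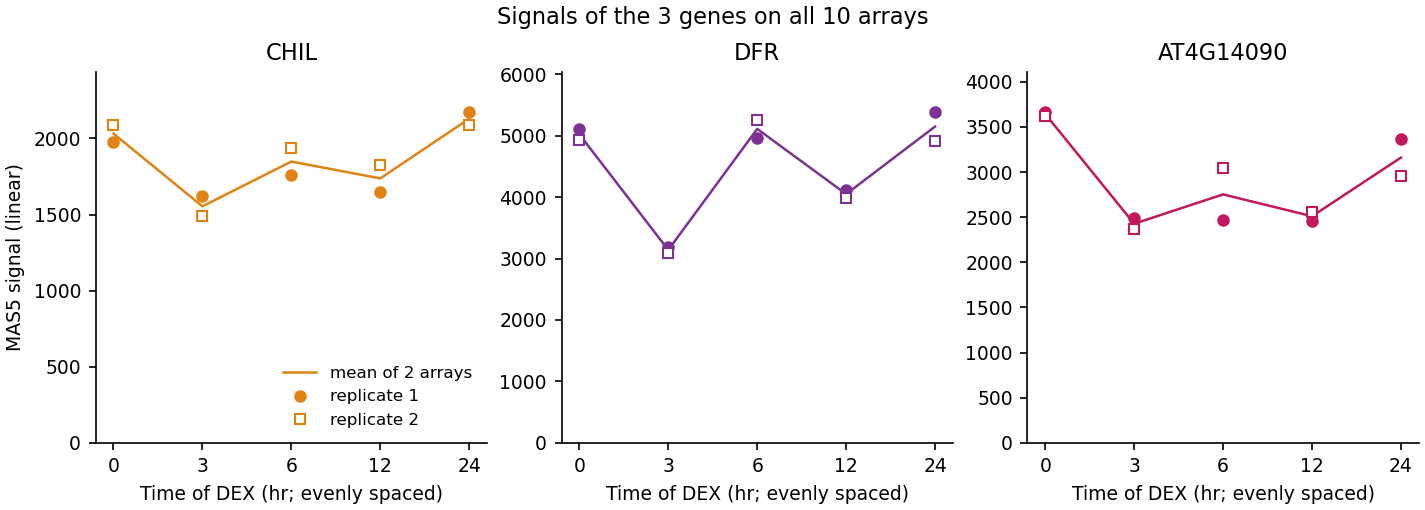
MAS5 signal (linear, vertical axes starting at 0) of CHIL, DFR and AT4G14090 against the time of DEX in hours (evenly spaced), with filled circles for replicate 1, open squares for replicate 2 and lines through the means of 2 arrays. DFR is low at 3 and 12 hr (means 3140 and 4049) and at its 0 hr level at 6 and 24 hr, whereas AT4G14090 stays below its 0 hr mean of 3643 throughout.

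Counted by overlap, 3 of the 3 genes had both arrays below both control arrays at 3 hr, 2 of 3 at 6 hr, 3 of 3 at 12 hr and 1 of 3 at 24 hr. With 2 arrays against 2 such a separation is common. Over all 22746 probe sets it was met downwards by 27.3% after 3 hr, 31.8% after 6 hr, 26.4% after 12 hr and 24% after 24 hr. These comparisons chose the genes, so nothing is read from the counts. The median log2 difference of the 3 genes was -0.58, -0.14, -0.31 and 0.03 at 3, 6, 12 and 24 hr, beside -0.03, -0.05, -0.03 and -0.03 over all probe sets.

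Placed among the 15922 probe sets with a mean signal above the 30th percentile, DFR at 3 hr had 1.95% of them below it in log2 difference, AT4G14090 had 3.15% and CHIL had 9.26%. At 12 hr the order was another one. AT4G14090 then had 0.992% of these probe sets below it, DFR 6.13% and CHIL 13.0%. At 6 hr DFR lay at 58.6%, near the middle, while AT4G14090 lay at 7.48% and CHIL at 33.4%. At 24 hr AT4G14090 lay at 16.4%, DFR at 59.9% and CHIL at 66.4%.

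**Figure D2:**
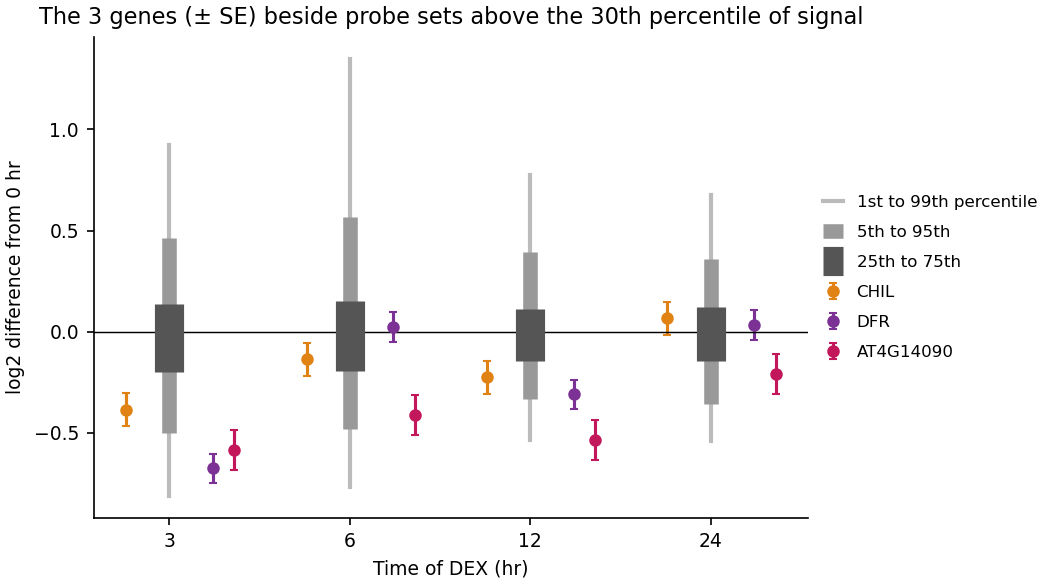
Log2 difference from 0 hr at 3, 6, 12 and 24 hr of DEX for the 3 genes (points, ± SE of the fit) beside grey bars that span the 25th to 75th, 5th to 95th and 1st to 99th percentiles of the 15922 probe sets above the 30th percentile of mean signal. DFR and AT4G14090 lie in the lower tail at 3 hr (-0.68 and -0.58), and at 12 hr AT4G14090 (-0.53) is the lowest of the 3. Such differences chose the genes, so their places are a description and no test.

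Ratios between the genes within an array hardly depend on how arrays were scaled, and they describe where the 3 courses parted. They are built from the signals that chose the genes, so they are no test. At 3 hr the log2 ratio of AT4G14090 over DFR was 0.10 and 0.08 above the mean of the control arrays, which themselves lay at -0.02 and 0.02. At 6 hr it was -0.54 and -0.33, at 12 hr -0.28 and -0.17, and at 24 hr -0.22 and -0.27. AT4G14090 was thus slightly less low than DFR at 3 hr, and at the later times it was low relative to DFR on all 6 arrays.

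The ratio of AT4G14090 over CHIL lay below that of both control arrays on all 8 DEX arrays, between -0.36 and -0.17 on the log2 scale. All 8 are set against the same control arrays, so they are not separate comparisons. The ratio of CHIL over DFR was 0.33 and 0.26 at 3 hr and -0.19 and -0.14 at 6 hr, against -0.06 and 0.06 at 0 hr. At 12 hr it was -0.01 and 0.18 and at 24 hr -0.0035 and 0.07, and at both times at least 1 array lay within the range of the control arrays. CHIL was therefore less low than DFR at 3 hr and lower relative to DFR at 6 hr.

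**Figure D3:**
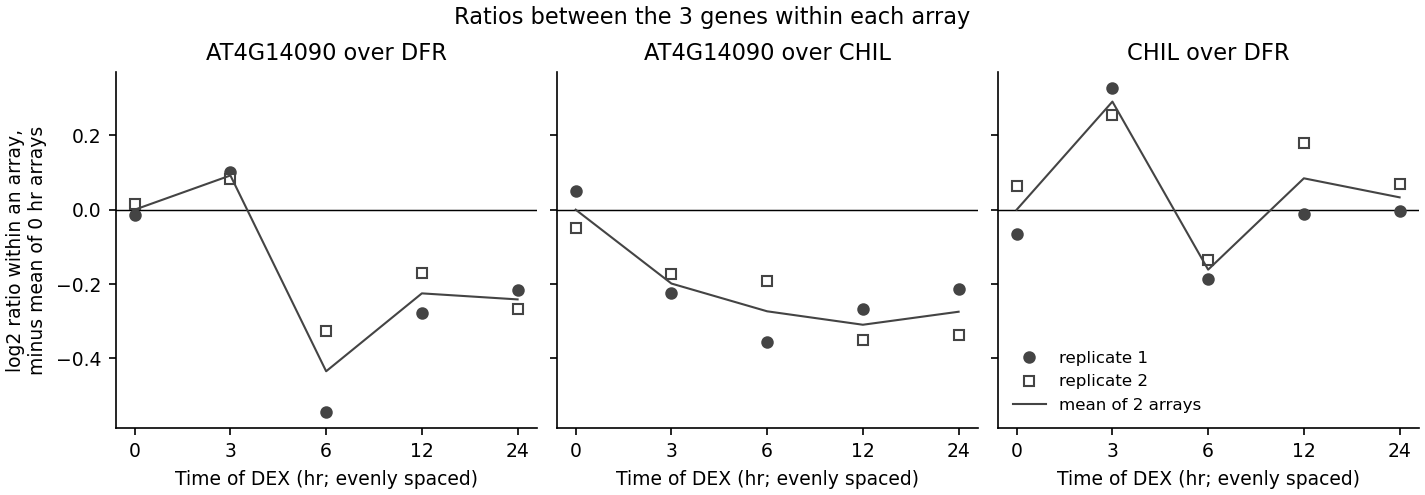
Log2 ratio of the signals (with 16 added) of each pair of genes within an array, minus the mean of the 0 hr arrays, against time of DEX in hours (evenly spaced), with filled circles for replicate 1, open squares for replicate 2 and lines through the means. AT4G14090 over DFR is near 0 at 3 hr (0.10 and 0.08) and below 0 on all arrays of 6, 12 and 24 hr. The genes were chosen by these signals, so the ratios are a description and no test.

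Over the 10 arrays, which hold 5 times in pairs, the log2 signals of DFR and CHIL had a Pearson correlation of 0.87 (Spearman 0.75), those of CHIL and AT4G14090 one of 0.85 (Spearman 0.85), and those of DFR and AT4G14090 one of 0.72 (Spearman 0.70). Ranked by their correlation with DFR among 8767 other probe sets of 1 gene above background, CHIL came at place 47 and AT4G14090 at place 408. The genes were chosen by their signals over these same arrays, so the correlations and places are a description and no test.

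The rest of the pathway was examined with lists of 34 flavonoid genes, of which 10 had a named probe set, the 3 genes included. The other 7 were UF3GT, UGT78D2, AT5MAT, UGT78D1, AT1G06000, and UGT78D3 and BAN, which were near background. Chalcone synthase, chalcone isomerase, flavonol synthase and anthocyanidin synthase had no named probe set and are not analysed here. These 7 were tested with limma over all probe sets, with Benjamini-Hochberg adjustment and a threshold of 0.05. At 3 hr 1 of the 7 fell and 0 rose, where 4.31% of all probe sets were called lower and 3.91% higher. The median log2 difference of the 7 was -0.27 at 3 hr, beside -0.03 over all probe sets, but 2 of the 7 are near background. At 6, 12 and 24 hr 0 of the 7 passed, where 9.36%, 1.6% and 0.958% of all probe sets were called in either direction. At an unadjusted p below 0.05 there were 3, 3, 2 and 2 of the 7 at 3, 6, 12 and 24 hr. Of all probe sets 22.3%, 23%, 13.2% and 13.8% met that threshold at these times. The median log2 difference of the 7 was -0.23 at 6 hr, -0.16 at 12 hr and -0.16 at 24 hr, beside -0.05, -0.03 and -0.03 over all probe sets. These medians include the 2 genes near background. At 6, 12 and 24 hr UGT78D3 was at -0.41, -0.51 and -0.26, and BAN at -0.52, 0.20 and -0.70.

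UF3GT, also known as UGT79B1, adds xylose to the 3-glucoside of anthocyanins, and it was the one that fell at 3 hr. Its signals were 1677 and 1545 at 0 hr, 1288 and 1234 at 3 hr, 1549 and 1530 at 6 hr, 1297 and 1304 at 12 hr, and 1335 and 1541 at 24 hr. Its means were thus lowest at 3 and 12 hr as well, with 1 of the 6 hr arrays within the range of 0 hr. Unlike those of DFR, its 24 hr arrays also lay below both control arrays, as was met downwards by 24% of all probe sets. The log2 difference at 3 hr was -0.35 (SE 0.08, adjusted p = 0.0235 by limma), and at 12 hr it was -0.30 (SE 0.08, adjusted p = 0.113). The 3 hr call was lost in the 4 fits that left out an array of either group (adjusted p between 0.0527 and 0.152) with arrays scaled to a common median (adjusted p = 0.0514), without the intensity trend (adjusted p = 0.113) and with the arrays of 0 and 3 hr alone (adjusted p = 0.0553).

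UGT78D2, the glucosyltransferase of position 3 that serves both anthocyanins and flavonols, had signals of 1781 and 1839 at 3 hr and 1641 and 1624 at 12 hr, against 2243 and 2118 at 0 hr. All 4 of these DEX arrays lay below both control arrays. So did the 6 hr arrays, at 2016 and 2110, while the 24 hr arrays, at 2312 and 1836, overlapped the control arrays. Such a separation was met downwards by 27.3% of all probe sets at 3 hr, 31.8% at 6 hr and 26.4% at 12 hr. Its log2 difference of -0.41 at 12 hr (SE 0.10, adjusted p = 0.0662 by limma) did not pass, and did pass when the lowest 30% of probe sets were left out (adjusted p = 0.0291), as well as when only the arrays of 0 and 12 hr were fitted (adjusted p = 0.0319) or without either 24 hr array. At 3 hr the log2 difference was -0.27 (SE 0.10, adjusted p = 0.125).

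AT5MAT attaches malonate to the glucose at position 5, the sugar that the product of AT4G14090 provides. Its signals were 366 and 413 at 0 hr, 322 and 354 at 3 hr, 513 and 476 at 6 hr, 358 and 349 at 12 hr and 436 and 390 at 24 hr. The 6 hr arrays were the highest 2 of the 10. Against 0 hr it passed at no time, with a log2 difference of 0.33 at 6 hr (SE 0.10, adjusted p = 0.0738 by limma). Between 3 and 6 hr it rose by 0.53 (SE 0.10, adjusted p = 0.00952), where 5.16% of all probe sets were called higher and 3.99% lower. Between 6 and 12 hr it fell by 0.46 (SE 0.10, adjusted p = 0.0455), where 1.68% were called lower, and that call was lost in 8 of the 10 fits without 1 array, all but those without a 24 hr array. The call was lost as well under 5 other settings, with adjusted p between 0.054 and 0.141, namely quantile normalization, a common median, no intensity trend, the replicate block and the compared arrays alone. The rise between 3 and 6 hr was lost without replicate 1 of 3 hr (adjusted p = 0.0716) or of 6 hr (adjusted p = 0.0827). At 6 hr the level of AT5MAT was therefore above its 0 hr arrays while that of AT4G14090 was below its own.

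Of the 3 measured sugar transferases listed for flavonols, UGT78D3 was near background, at a log2 difference of -0.51 at 3 hr that did not pass (adjusted p = 0.473 by limma), and the other two were bright. AT1G06000, known as a rhamnosyltransferase of flavonols at position 7, had signals of 2046 and 2184 at 3 hr, against 1784 and 1707 at 0 hr. UGT78D1, a rhamnosyltransferase of flavonols at position 3, had 1899 and 1908 at 3 hr, against 1788 and 1615 at 0 hr. In both bright genes the 3 hr arrays were the highest 2 of the 10. Neither difference from 0 hr passed, at 0.27 (SE 0.09, adjusted p = 0.108 by limma) for AT1G06000 and 0.16 (SE 0.10, adjusted p = 0.403) for UGT78D1, and a difference between their course and that of the other genes was not tested.

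AT1G06000 and UGT78D1 fell between 3 and 6 hr. AT1G06000 had 1516 and 1422 at 6 hr, a log2 difference from 3 hr of -0.52 (SE 0.09, adjusted p = 0.00586 by limma), which was lost without replicate 2 of 3 hr (adjusted p = 0.0517) or of 6 hr (adjusted p = 0.0519), and without the intensity trend of the fit (adjusted p = 0.0551). UGT78D1 had 1628 and 1293 at 6 hr, with -0.39 (SE 0.10, adjusted p = 0.0382), a call that held without replicate 1 of 6 hr or either 24 hr array and was lost in the other 7 of the 10 fits without 1 array. Without replicate 2 of 6 hr it was -0.22. The call was also lost without the intensity trend (adjusted p = 0.143) and when only the arrays of 3 and 6 hr were fitted (adjusted p = 0.119). Of the 7 other flavonoid genes 1 thus rose and 2 fell between 3 and 6 hr. Over all probe sets 5.16% were called higher and 3.99% lower in this comparison. Each call among the 7 was lost in some of the fits without 1 array. Over the 10 arrays AT1G06000 had a correlation of -0.79 with DFR and UGT78D1 one of -0.52. UF3GT had 0.76 with DFR, AT5MAT 0.73 and UGT78D2 0.68. With CHIL these genes had -0.67, -0.36, 0.62, 0.44 and 0.62 in that order, and with AT4G14090 -0.32, -0.14, 0.66, 0.25 and 0.78. ALDH2C4, a gene of sinapate and ferulate synthesis, had 0.68 with DFR, 0.83 with CHIL and 0.67 with AT4G14090.

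**Figure D4:**
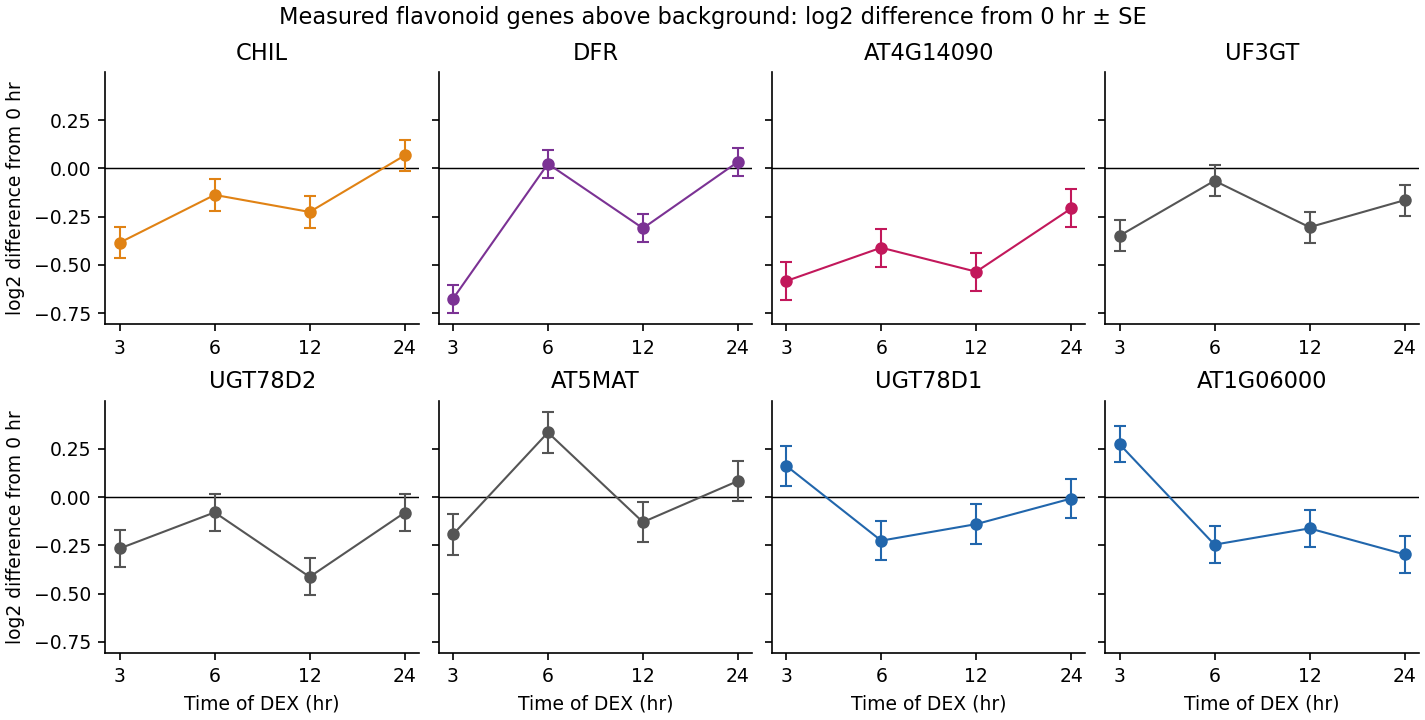
Log2 difference from 0 hr (vertical axis, ± SE of the fit) at 3, 6, 12 and 24 hr of DEX for the 8 measured flavonoid genes above background, with the 3 genes described here in colour, UF3GT, UGT78D2 and AT5MAT in grey and the flavonol genes UGT78D1 and AT1G06000 in blue. At 3 hr the first 6 genes have differences below 0 (-0.68 for DFR, -0.35 for UF3GT) and the flavonol genes have differences above 0 (0.16 and 0.27). The 3 genes in colour were chosen by such differences, so their signs are no support for a split. Of the genes in grey and blue, UF3GT alone passed at 3 hr, and a split between the groups was not tested.

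Of 51 genes for general phenylpropanoid steps, lignin and sinapate synthesis and regulators of flavonoids, 4 had a named probe set, and the MYB and bHLH activators of DFR were not among them. The Kelch-repeat F-box gene AT1G23390, whose product is known to direct chalcone synthase to degradation, was the gene of these 4 that passed. Its signals were 398 and 353 at 0 hr, 405 and 380 at 3 hr, 2582 and 2285 at 6 hr, 1849 and 1945 at 12 hr and 1365 and 1396 at 24 hr. The 3 hr arrays overlapped those of the control, and all 6 later arrays were more than 3 times higher. The log2 difference was 0.06 at 3 hr (adjusted p = 0.748 by limma), 2.65 at 6 hr (SE 0.09, adjusted p = 3.18e-08), 2.29 at 12 hr (adjusted p = 4.93e-07) and 1.84 at 24 hr (adjusted p = 6.63e-06). Probe sets called higher made up 5.17%, 1.27% and 0.717% of all at 6, 12 and 24 hr. DFR was at its lowest at 3 hr, when AT1G23390 was at its control level, and overlapped its own control arrays at 6 hr, when AT1G23390 was highest. A relation between AT1G23390 and DFR was not tested, and the arrays do not measure chalcone synthase protein.

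The other 3 were HYH, a bZIP factor of the light response related to HY5, HCT of lignin synthesis and ALDH2C4 of sinapate and ferulate synthesis. None of these 3 passed against 0 hr at any time by limma, and ALDH2C4 at 3 hr was the one value of the 12 at an unadjusted p below 0.05. HYH had signals of 130 and 166 at 6 hr, against 187 and 185 at 0 hr, a log2 difference of -0.31 (SE 0.15, adjusted p = 0.26). ALDH2C4 had 2381 and 2307 at 3 hr, against 2590 and 2842 at 0 hr, a log2 difference of -0.21 (SE 0.08, adjusted p = 0.133).

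The genes whose course was most like each of the 3 were taken by Pearson correlation of the log2 signal over the 10 arrays, among 8767 probe sets that match 1 gene and exceed the 30th percentile of mean signal. For DFR they were TBL32, on a probe set marked as shared between transcripts, ChiC, AT1G53710, AT4G34480 and AT1G61170, with correlations between 0.939 and 0.955. At 3 hr their log2 differences from 0 hr ran between -0.91 (AT1G61170) and -0.41 (ChiC), and at 6 hr all 5 were between 0.03 and 0.23. For CHIL they were CDI, AT5G02680, AT3G53270, AT5G52970 and AT3G20510, with correlations between 0.926 and 0.943 and 3 hr differences between -0.54 and -0.26. For AT4G14090 they were AT5G58740, AT3G11110, AT4G17486, AT2G36240 and AT4G19985, with correlations between 0.931 and 0.944.

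The last 5 genes had log2 differences below 0 at all 4 times, as AT4G14090 had, with -0.59 at 3 hr and -0.47 at 12 hr for AT4G19985. Each set of 5 was picked by its correlation over these same arrays. The likeness of its course to that of its gene therefore follows from the choice and is no test. The 3 sets of 5 had no gene in common. In all 17 probe sets had a correlation above 0.9 with DFR, 12 with CHIL and 20 with AT4G14090, and no measured gene of the flavonoid lists was among the 5 most similar to any of the 3.

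**Figure D5:**
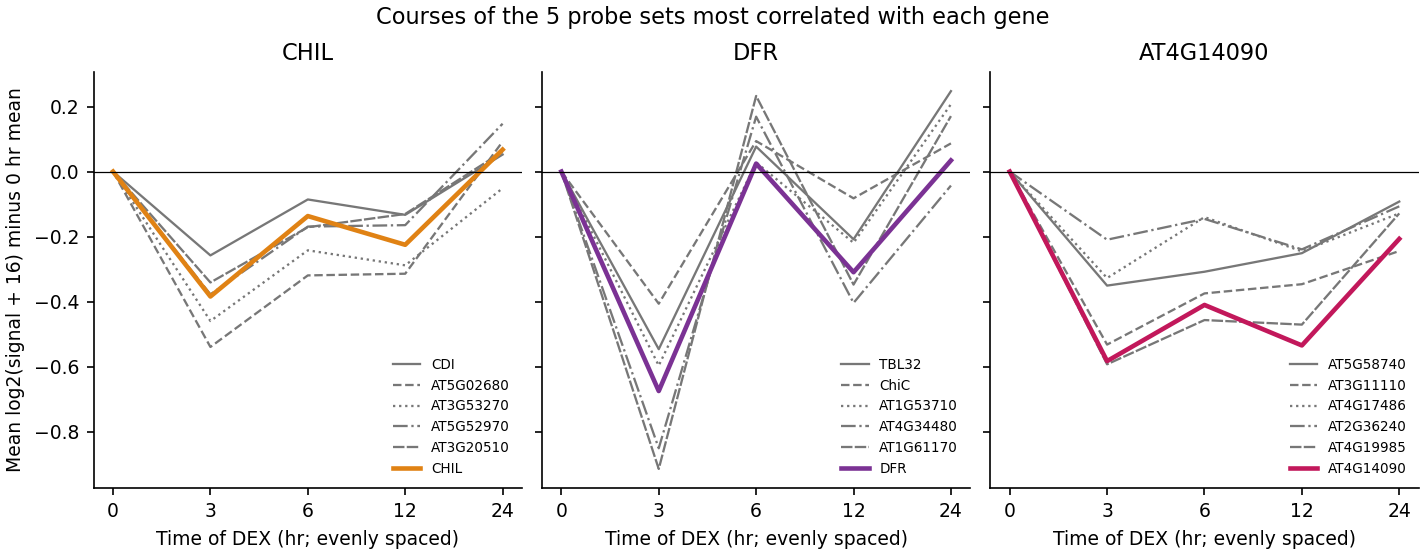
Mean log2(signal + 16) of 2 arrays per time minus the 0 hr mean, against time of DEX in hours (evenly spaced), for CHIL, DFR and AT4G14090 (thick coloured lines) and the 5 probe sets most correlated with each over the 10 arrays (grey lines). The DFR set is low at 3 hr (between -0.91 and -0.41) and above 0 at 6 hr, and the AT4G14090 set lies below 0 at every DEX time. The sets were picked by their correlation over these arrays, so this likeness follows from the choice.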

How the data were processed

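The authors deposited linear MAS5 signal intensities, 1 value for each probe set on each array. Per the submitters' processing notes these came from version 1.1 of Affymetrix Expression Console. Background correction and scaling target are not given in the sources used here. The mean of each array without the top and bottom 2% of values was 500.0 to 500.1. Total RNA of 300 ng per sample was labelled with a 3' IVT kit, per the labels' protocols.

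Of 22810 probe sets, 64 controls were set aside. Genes came from the platform annotation, which named 1 gene for 13513 probe sets and several for 503 and did not list 8730, with symbols and loci from the TAIR10.1 reference. Signals were analysed as log2(signal + 16) in limma 3.58.1 (R 4.3.3), fitting a mean for each time, with moderated variances with an intensity trend, 5 residual and 5.86 prior degrees of freedom, and Benjamini-Hochberg adjustment over 22746 probe sets. SE comes from this fit and SD from the 2 arrays of a time. The procedure was tested on simulated data. The number of arrays limits the precision.

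The 3 genes and the lists were chosen with earlier results of these data known. A listed gene is represented by its brightest probe set. All measured list genes could be named, as could the 5 probe sets most correlated with each of the 3 genes. Alternatives were other offsets, normalizations and variance models, a filter on low signals, a replicate block and leaving out each array. The replicate numbers shared no batch in the labels, and deviations of same-numbered arrays had correlations between -0.04 and 0.09, so the arrays were not paired.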

Additional observations from a re-analysis of the deposited data

How the results depend on the processing

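With 2 arrays per time, 1 array can set a value. Shifts were set against the residual SD of the fit, pooled over all times on the log2 scale: 0.056 for DFR, 0.080 for CHIL and 0.115 for AT4G14090. The log2 differences of the 3 genes from 0 hr moved by less than this SD under both other offsets, quantile normalization, a common median and the replicate block. DFR at 3 hr came close to it with a common median, at -0.62 (-0.68 as reported). Between successive times 2 values moved by more: DFR at 6 hr against 3 hr was 0.64 with a common median (0.70 as reported), and at 12 hr against 6 hr it was -0.39 after quantile normalization (-0.33 as reported). Leaving out each array gave AT4G14090 at 6 hr against 0 hr between -0.56 and -0.26, at 6 hr against 3 hr between 0.022 and 0.32, and at 12 hr against 6 hr between -0.27 and 0.026, reversed at 0.026 without replicate 2 of 6 hr. CHIL lay between -0.20 and -0.069 at 6 hr, between 0.027 and 0.11 at 24 hr and between -0.16 and -0.017 at 12 hr against 6 hr, and AT4G14090 at 24 hr lay between -0.30 and -0.12. DFR at 6 hr lay between -0.017 and 0.066 against 0 hr. DFR at 24 hr lay between -0.032 and 0.10 against 0 hr and between 0.28 and 0.41 against 12 hr.

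The count of other flavonoid genes called at 3 hr, 1 as reported, was 0 with a common median, 0 without the intensity trend and 0 when only the arrays compared were fitted. It was 0 without either control array or either 3 hr array and 3 without either 24 hr array. At 12 hr, with 0 as reported, it was 1 without the lowest 30% of probe sets, 1 with the compared arrays alone and 1 without either 24 hr array. Leaving out 1 array gave between 0 and 1 at 6 hr, with 1 without 6 hr replicate 1 or either 24 hr array, and between 0 and 1 at 24 hr, with 1 without 24 hr replicate 2. The cause was not tested. With a replicate block the counts at 3, 6, 12 and 24 hr were 1, 0, 0 and 0, and among named genes the block ended the call of AT5MAT between 6 and 12 hr (adjusted p = 0.0701). AT1G23390 kept its calls at 6, 12 and 24 hr in all 18 alternative fits.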
